A study of Mus musculus with 6 samples.

Results

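The proliferins are a small group of secreted hormones of the prolactin family, encoded in the mouse by genes whose names begin with Prl2c. Every gene with such a name in the deposited values was taken, which gave 3 genes, Prl2c3, Prl2c2 and Prl2c5, of 24413 genes in all. They were picked for description because Prl2c3 and Prl2c2 stood high in the contrast of the study, so their values in that contrast are given as a description with no test. Averaged over the 6 libraries, Prl2c3 and Prl2c2 reached the level filter of 1 FPKM (fragments divided by gene length and library total), as did 11678 genes in all, and Prl2c5 did not.

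The study measured poly(A) RNA of mouse Achilles tendon cells that carry the alleles Tppp3ECE/+;R26RtdT-CreERT2;Scx-GFP and that the labels name Tppp3+ cells. Tendons of 3 male mice aged 12 weeks were dissociated, and cells were sorted with gates on GFP and on the red reporter tdT. The control group (3 libraries) was kept for 24 h in medium with 1% FBS, and the conditioned group (3 libraries) for 24 h in medium that had been on cultures of dorsal root ganglia (DRG), which hold the cell bodies of sensory neurons. Lumbar ganglia were taken from 3 male C57BL/6J mice of 12 weeks and grown for 4 to 5 days with the antimitotic agents 5-fluoro-2-deoxyuridine and uridine, each at 20 µM, before the change to 1% FBS medium that was harvested daily, passed through a 0.22 µm filter and frozen.

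Both groups therefore share the genotype, the sort and the serum level of the starting medium. Substances released by the ganglion cultures, consumption of the medium by them and carried-over antimitotic agents cannot be told apart in this design. No label says which animal a library came from, so p-values reflect only how far these libraries differ among themselves, which may be technical. In bulk RNA, a different number of cells making a transcript and a different amount of it per cell cannot be told apart either.

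Proliferins, also called mitogen-regulated proteins, are glycoproteins best known from the trophoblast giant cells of the placenta, and they were found in cultured mouse fibroblasts whose growth had been stimulated by serum or growth factors. They carry mannose 6-phosphate, bind the mannose 6-phosphate/IGF2 receptor (Igf2r) and are known to act on endothelial cells as an angiogenic signal. A proliferin promoter is a textbook example of a composite regulatory element, at which AP-1, the dimer of Fos and Jun proteins that acts downstream of growth factors and phorbol ester, meets the glucocorticoid receptor.

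The 3 genes lie in one stretch of chromosome 13 (mm10, GENCODE M21). Prl2c3 (ENSMUSG00000056457) spans chr13:12790816-12800079 and Prl2c2 (ENSMUSG00000079092) spans chr13:12996125-13005383, both on the minus strand, with starts 205 kb apart. Prl2c5 (ENSMUSG00000055360) spans chr13:13182715-13191923 on the plus strand. The main transcript of each has 5 exons, and the coding sequence has 675 bases in Prl2c3 and Prl2c2 and 669 in Prl2c5. Prl2c3 and Prl2c2 share 672 of their 675 coding bases (99.6%). Prl2c5 shares 96.0% of aligned coding positions with Prl2c3 and 96.1% with Prl2c2.

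The 3 coding positions at which Prl2c3 and Prl2c2 part are the letters by which a fragment from the coding sequence can be assigned to either copy. Counted from 1 at the A of the start codon, with the Prl2c3 base first and the Prl2c2 base last, they are C14T in exon 1, A200C in exon 2 and G319T in exon 4. At these positions Prl2c5 has the letter of Prl2c2 for the first and the second, and that of Prl2c3 for the third. The stretches around the first and the second are given here with the differing base in capitals (coding bases 1 to 44 and 170 to 230, GENCODE M21 transcripts).
Prl2c3 coding bases 1 to 44: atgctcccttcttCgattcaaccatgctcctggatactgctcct
Prl2c2 coding bases 1 to 44: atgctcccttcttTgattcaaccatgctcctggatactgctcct
Prl2c3 coding bases 170 to 230: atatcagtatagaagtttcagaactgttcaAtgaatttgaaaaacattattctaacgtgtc
Prl2c2 coding bases 170 to 230: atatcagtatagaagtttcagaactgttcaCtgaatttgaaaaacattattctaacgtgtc

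Around G319T, Prl2c5 can be told from both other copies at several letters within a short distance. The next stretch covers coding bases 306 to 365 of Prl2c3 and the aligned bases of the others, and capitals mark the 7 positions at which the 3 copies are not all alike.
Prl2c3: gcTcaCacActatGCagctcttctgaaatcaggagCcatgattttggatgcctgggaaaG
Prl2c2: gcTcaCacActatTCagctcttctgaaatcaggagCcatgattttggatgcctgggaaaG
Prl2c5: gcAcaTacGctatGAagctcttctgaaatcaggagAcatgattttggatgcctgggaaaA
In this stretch Prl2c3 and Prl2c2 differ at a single letter, while Prl2c5 differs from each of them at more.

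How much of each transcript is distinctive sets how well fragments can be divided among the copies. Of all windows of 50 bases in the main transcript, 21.4% in Prl2c3, 10.5% in Prl2c2 and 61.4% in Prl2c5 occurred in the transcripts of no other gene. With windows of 150 bases the shares were 50.1%, 49.1% and 100%. How long the reads were, and how the authors treated fragments that fit several places, was not given in the sources used here. Any fragment from a shared stretch of Prl2c3 or Prl2c2 could thus have been given to either gene or to none, and the value of each copy is less certain than their sum. Prl2c5 is the most distinctive copy at every window length tried.

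The sequence upstream of a start site was examined because the copies are near neighbours with near-identical coding sequences. RefSeq promoters (build GRCm38.p6) were matched for Prl2c3 and Prl2c5, 2 of the 3 genes; that of Prl2c2 was not analysed here. The 250 bases before the start are chr13:12800080-12800329 on the minus strand for Prl2c3 and chr13:13182466-13182715 on the plus strand for Prl2c5. Capitals mark matches to the AP-1-like letters TGANTCA and to the TATA-like letters TATATAA, searched on both strands.
Prl2c3: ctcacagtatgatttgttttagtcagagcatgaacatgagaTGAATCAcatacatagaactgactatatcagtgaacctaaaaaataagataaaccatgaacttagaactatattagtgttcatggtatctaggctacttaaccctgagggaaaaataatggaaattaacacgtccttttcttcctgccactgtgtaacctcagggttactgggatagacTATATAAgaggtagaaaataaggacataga
Prl2c5: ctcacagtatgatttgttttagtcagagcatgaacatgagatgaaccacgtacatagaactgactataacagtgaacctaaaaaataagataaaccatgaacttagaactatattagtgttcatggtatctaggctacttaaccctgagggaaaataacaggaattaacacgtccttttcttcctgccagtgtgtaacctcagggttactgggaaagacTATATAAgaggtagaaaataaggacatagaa

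The promoters of Prl2c3 and Prl2c5 were 96.0% identical, with 8 substitutions. Both held TATATAA, at bases -30 to -24 of Prl2c3 and -31 to -25 of Prl2c5, as did 3.04% of the 32851 RefSeq promoters of the same length. Prl2c3 held TGAATCA at bases -209 to -203, and 6.75% of all promoters held a match to TGANTCA. The substitution T46C, counted from 1 at the 5′ end of the Prl2c3 stretch with the Prl2c3 base first, falls within those letters, and Prl2c5 had no match. Among 22 prolactin family genes searched, 7 held TGANTCA and 5 held TATATAA. Neither promoter held the stricter AP-1 letters TGACTCA (4.46% of all promoters), the glucocorticoid half-site AGAACA (16.1%) or the STAT letters TTCNNNGAA (7.02%) in this window. The core letters of the interferon-stimulated response element (2.98%), TGACNNNGC of antioxidant elements (10.2%) and TGACGTCA of cyclic AMP elements (1.55%) were not in it either. A match to letters is a description of sequence and not a bound site.

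The totals by which the authors had scaled the libraries ran from 18814702 to 26233217 fragments. In limma with Benjamini-Hochberg adjustment, 472 of the 11678 genes tested were higher with conditioned medium (4.04%) and 291 were lower (2.49%), 6.53% in all at an adjusted p below 0.05. The groups did not overlap for 26.0% of the genes tested, and 14.3% lay higher in all 3 conditioned libraries than in any control. The median log2 fold change of all genes tested was 0.0052. Of 12 tendon markers 11 were tested, and their levels summed to 5111 to 5216 FPKM in the controls and 4304 to 4420 FPKM with conditioned medium. Of these 1 was higher, 6 were lower and 4 did not pass. Most of the sum was Col1a1, at 3337 and 2662 FPKM in the controls and with conditioned medium, and Col1a2, at 1040 and 809 FPKM. Tppp3, the gene that drives the Cre of the lineage label, was at 0.903 ± 0.166 FPKM in control libraries and 0.908 ± 0.184 FPKM in conditioned ones (SD, n = 3 each) and lay below the level filter.

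Prl2c3 was at 4.40, 3.39 and 5.25 FPKM in control libraries 1, 2 and 3 and at 36.3, 34.7 and 34.3 FPKM in conditioned libraries 1, 2 and 3. The groups were far apart: the lowest conditioned library was 6.53-fold above the highest control. These levels rest on 404 fragments in the control and 3056 in the conditioned libraries. The means were 4.35 ± 0.930 FPKM and 35.1 ± 1.05 FPKM (SD, n = 3 each), a ratio of 8.07. On the log2(FPKM + 1) scale the difference was 2.77 ± 0.15 (SE), first in size among the 11678 genes tested, which is the ranking that brought the gene forward.

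Prl2c2 was at 3.52, 3.36 and 4.64 FPKM in control libraries 1, 2 and 3 and at 23.8, 23.3 and 25.5 FPKM in conditioned libraries 1, 2 and 3. Again no library of one group came near the other, with the lowest conditioned library 5.01-fold above the highest control. The fragments behind these values numbered 287 in control and 1694 in conditioned libraries. The means were 3.84 ± 0.699 FPKM and 24.2 ± 1.18 FPKM (SD, n = 3 each), a ratio of 6.30 and a log2 difference of 2.39 ± 0.12 (SE). Prl2c2 thus stood at place 3 by log2 fold change. Both of the 2 proliferins above the level filter had groups that did not overlap, beside a background of 14.3% of genes in this direction, and a log2 fold change of at least 2 was seen in 0.0771% of genes. The proliferins were chosen on this contrast, so nothing is read from these counts.

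Prl2c5, the most distinctive copy, was close to absent in both media. It was listed at 0, 0 and 0.0421 FPKM in control libraries and at 0.234, 0.0452 and 0.0724 FPKM in conditioned libraries. That is 1 fragment in the control group and 9 in the conditioned group, of which 6 were in conditioned library 1. A count of 0 in a library allows up to 3 fragments, and no fold is given at this depth.

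The sum of the 3 genes does not depend on which copy a fragment was given to, apart from the gene lengths by which fragments are divided. The sum would still miss fragments that were dropped or given to Gm7040 or Prl2c1, which share windows of 50 bases with the proliferins. It was 7.92, 6.75 and 9.93 FPKM in control libraries 1, 2 and 3 and 60.3, 58.0 and 59.8 FPKM in conditioned libraries 1, 2 and 3. The conditioned libraries lay within a narrow band, with a coefficient of variation of 1.99% against 19.6% among the controls. The means were 8.20 ± 1.61 and 59.4 ± 1.18 FPKM (SD, n = 3 each), a ratio of 7.24 and a log2 difference of 2.73 ± 0.15 (SE). Counted as fragments with no division by length, the copies together took 10.1 ± 2.00 of every 1000000 fragments in control and 74.2 ± 1.45 in conditioned libraries. By mean FPKM the sum would stand at place 5194 of 24411 in control and 713 in conditioned medium, so that 21.3% of genes were above it in the first and 2.92% in the second.

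**Figure D1:**
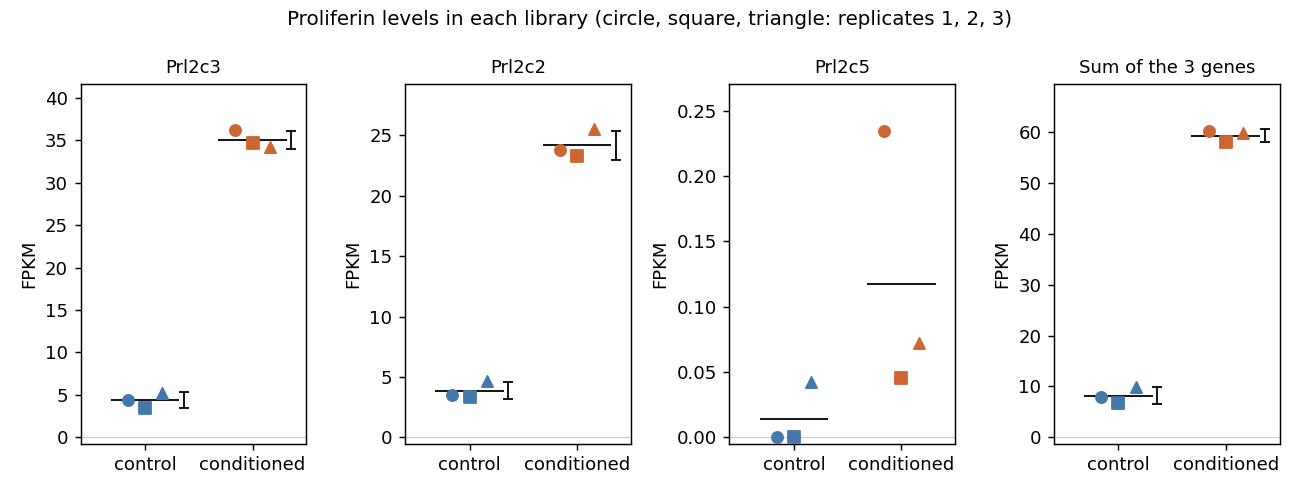
Deposited FPKM of Prl2c3, Prl2c2, Prl2c5 and their sum (vertical axes, each from 0 with its own scale) in the 3 control and 3 conditioned libraries; points are libraries, horizontal lines group means and bars 1 SD, drawn for all but Prl2c5. The conditioned libraries of Prl2c3, Prl2c2 and the sum sit well above the controls, while Prl2c5 stays below 0.25 FPKM in every library.

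Within the control group the spread of the copies was similar in kind. Control library 3 was the highest and control library 2 the lowest for both Prl2c3 and Prl2c2. In the conditioned group the order was not shared: library 1 was highest for Prl2c3 and library 3 for Prl2c2. The lowest conditioned sum was 5.84-fold above the highest control sum.

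The share of each copy in the sum was taken library by library. Prl2c3 made up 55.6%, 50.3% and 52.9% of the summed FPKM in control libraries 1, 2 and 3 and 60.2%, 59.9% and 57.2% in conditioned libraries 1, 2 and 3. Every conditioned library had a larger Prl2c3 share than any control, though the nearest libraries were close. The mean share was 52.9 ± 2.67% in control and 59.1 ± 1.60% in conditioned medium (SD, n = 3 each). In each library Prl2c3 was above Prl2c2, by 1.01-fold to 1.25-fold in control and by 1.34-fold to 1.52-fold in conditioned medium.

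Counting error alone left room around these shares. Of the 692 control fragments of the 3 genes, 58.4% were given to Prl2c3 (95% Wilson interval 54.7% to 62.0%), and of the 4759 conditioned fragments 64.2% (62.8% to 65.6%). Prl2c5 took 1 of 692, or 0.145% (0.0255% to 0.814%), and 9 of 4759, or 0.189% (0.0995% to 0.359%). The intervals cover counting error only and not the doubt from shared sequence. The lengths behind the deposited values were 1360, 1090 and 1177 bases for Prl2c3, Prl2c2 and Prl2c5, which equal the GENCODE M21 union of exons. The main transcripts have 857, 842 and 844 bases. With those lengths in their place, a choice made after seeing the data, the Prl2c3 share was 57.9 ± 2.61% in control and 63.9 ± 1.53% in conditioned medium, and the summed level 11.9 ± 2.35 and 87.2 ± 1.70 FPKM.

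**Figure D2:**
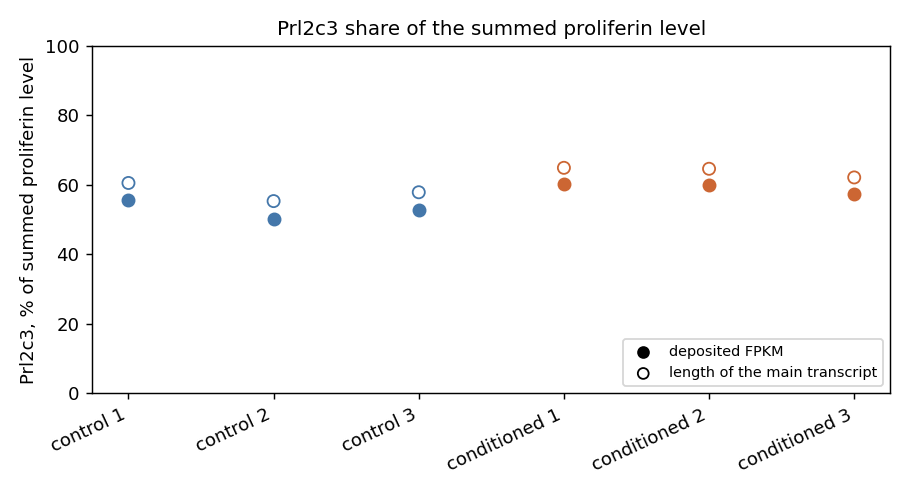
Share of Prl2c3 in the summed level of the 3 proliferin genes (vertical axis, percent) in each library, from deposited FPKM (filled) and with the length of the main transcript (open). With either length the conditioned libraries lie above the controls, and the choice of length moves every library upward by a similar amount.

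Other hormones of the prolactin family were barely detected. Of 23 listed relatives 5 were among the deposited genes, and 0 reached the level filter. Prl, the pituitary hormone prolactin, was counted with 6 fragments in the controls and 4 with conditioned medium. The placental hormones Prl3d2 and Prl3d3 had 0 and 0 fragments in control and 2 and 3 in conditioned libraries. Prl6a1 had 3 and 2 fragments, and Prl7a1 had 4 and 2. Summed over the 5 genes, the controls held 0.0917 to 0.187 FPKM and the conditioned libraries 0.0605 to 0.273 FPKM, with 13 fragments in each group.

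Trophoblast cells, the classical source of proliferins, left little trace. Of 13 trophoblast markers, 5 were among the deposited genes and 0 were tested. They summed to 0.226 to 0.467 FPKM in the controls and to 0.208 to 0.295 FPKM with conditioned medium, from 46 and 32 fragments. In control and conditioned libraries, Syna had 32 and 17 fragments, Ascl2 had 7 and 13, Gcm1 had 4 and 0, Plac1 had 3 and 0, and Esrrb had 0 and 2. Of the 9 endothelial markers present, 1 was tested. That gene, the angiopoietin receptor Tek, fell from 5.90 to 4.50 FPKM (limma, Benjamini-Hochberg adjusted p = 0.023), and it lost its call without control library 1 or 2 or any one conditioned library (adjusted p up to 0.084). The endothelial sum ran from 6.46 to 7.23 FPKM in the controls and from 5.35 to 5.53 FPKM with conditioned medium. Pecam1 and Cdh5, which define endothelium, were near 0, at 0.0672 and 0.0288 FPKM in the controls and 0.0195 and 0.0185 FPKM with conditioned medium. Tek made up most of the endothelial sum in both groups. Of the markers not tested, Flt1, Egfl7 and Emcn had 30, 101 and 1 fragments in the controls and 41, 107 and 5 with conditioned medium. Kdr, Esam and Vwf went the other way, with 98, 46 and 30 fragments in the controls and 81, 39 and 24 with conditioned medium.

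Markers of the ganglion cultures were low as well. Neuron markers summed to 23.3 to 26.1 FPKM in the controls and to 17.7 to 18.3 FPKM with conditioned medium, nearly all of it Tubb3, a tubulin and the 1 tested marker of 10 present, which fell from 22.6 to 16.5 FPKM. Glial markers summed to 3.90 to 4.27 and 2.36 to 3.73 FPKM, and macrophage markers to 6.63 to 7.75 and 6.68 to 7.02 FPKM. Sox10, which defines glia, had 0 and 2 fragments, and Ptprc, the leukocyte antigen CD45, had 1 and 5. The 1 glial marker tested, S100b, had 2.42 FPKM in the controls and 1.50 FPKM with conditioned medium and did not pass in limma. The 3 macrophage markers tested did not pass either. In the same order, Lyz2 had 2.68 and 1.79 FPKM, Cd68 had 1.39 and 1.62 FPKM, and Cd14 had 2.84 and 3.19 FPKM. Keratinocyte markers summed to 0.858 to 1.31 and 0.806 to 0.924 FPKM, and muscle markers to 41.0 to 44.2 and 41.0 to 44.4 FPKM. Only 2 of 6 muscle markers were among the deposited genes, and nearly all of their sum was Acta1, at 39.2 and 40.0 FPKM. The part of these markers in the proliferin values was not tested. None of these sums was higher in all 3 conditioned libraries than in every control.

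Proliferins share an ancestor with prolactin and growth hormone, whose receptors signal through the kinase Jak2 and the factors Stat5a and Stat5b. Prlr, the prolactin receptor, was near absent, with 0.0800 ± 0.0193 FPKM in control and 0.0492 ± 0.00552 FPKM in conditioned libraries (SD, n = 3 each), and was not tested. Ghr, the growth hormone receptor, was present at 12.1, 11.8 and 11.8 FPKM in control and 11.7, 12.0 and 12.1 FPKM in conditioned libraries, so the groups overlapped (log2 fold change 0.01, limma adjusted p = 0.92). Jak2 had 15.8 and 16.3 FPKM (0.05, adjusted p = 0.67), Stat5a 3.56 and 3.56 FPKM (0.00091, adjusted p = 1.0) and Stat5b 6.20 and 6.45 FPKM (0.05, adjusted p = 0.65 in limma).

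Of 17 listed genes of this signalling route 15 were tested, of which 2 were higher, 2 were lower and 11 did not pass, beside 4.04% higher and 2.49% lower among all genes tested. The median log2 fold change of the list was 0.05. Socs3, a feedback inhibitor of cytokine receptors, rose from 12.3 ± 1.20 to 19.7 ± 2.08 FPKM (0.65 ± 0.09, adjusted p = 0.0049 in limma).

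The growth factor Igf1, a classical product of growth hormone action, went the other way, from 4.53 ± 0.740 to 2.84 ± 0.0650 FPKM (log2 fold change -0.52 ± 0.09, limma adjusted p = 0.016). It lost its call without control library 2 (adjusted p = 0.063) or conditioned library 1 or 2 (0.068 each). Without the level filter the call was lost as well (limma adjusted p = 0.062). Irs1, the adaptor of the insulin and IGF1 receptors, fell from 7.74 ± 0.565 to 5.55 ± 0.406 FPKM (-0.42 ± 0.07, adjusted p = 0.010 in limma).

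The route by which proliferins are tagged and bound was expressed in both media. Igf2r was at 53.4, 49.7 and 47.5 FPKM in control and 45.7, 46.2 and 46.9 FPKM in conditioned libraries. All 3 conditioned libraries lay just below the lowest control, with a log2 fold change of -0.11 ± 0.05 (SE) that did not pass (limma adjusted p = 0.23). M6pr, the smaller receptor of the same tag, was at 26.4, 28.2 and 28.9 FPKM in control and 34.0, 33.3 and 29.7 FPKM in conditioned libraries. Its log2 fold change of 0.21 ± 0.06 did not pass (adjusted p = 0.087), though it did without conditioned library 3 (0.27, adjusted p = 0.034) and by voom on recovered fragments (adjusted p = 0.012).

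Gnptab, which encodes the enzyme subunits that attach the tag, had 12.9 and 13.2 FPKM, and Nagpa, which uncovers it, had 10.2 and 11.1 FPKM. Neither passed in limma (adjusted p = 0.78 and 0.40). Of 9 listed genes of this route 8 were tested and 0 passed in limma, with 2 at an unadjusted p below 0.05 (Igf2r and M6pr) and 1 called by voom. With 6.53% of all genes tested called in limma, nothing is read from 0 of 8. The median log2 fold change of the route was 0.07.

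Of 12 AP-1 genes in the deposited values, the factors named for the proliferin promoter, 8 passed the level filter. Fosl2, a Fos-related subunit, was at 33.1, 34.1 and 31.5 FPKM in control and 45.4, 42.9 and 42.8 FPKM in conditioned libraries. The groups did not overlap, and Fosl2 rose by 0.40 ± 0.04 (SE, limma adjusted p = 0.0011). Fos itself was at 40.8, 46.1 and 44.1 FPKM in control and 35.5, 37.4 and 37.3 FPKM in conditioned libraries. It fell by 0.24 ± 0.05 on the log2 scale (adjusted p = 0.028 in limma), a call lost without control library 2 or 3 or any one conditioned library (adjusted p 0.066 to 0.11). The call was also lost without the level filter (limma adjusted p = 0.087).

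The remaining subunits did not pass. Fosl1 had 11.8 and 13.0 FPKM (log2 fold change 0.12, limma adjusted p = 0.30). Jun had 49.8 and 48.2 FPKM (-0.05, adjusted p = 0.53), Junb 103 and 107 FPKM (0.06, adjusted p = 0.83) and Jund 33.7 and 36.9 FPKM (0.15, adjusted p = 0.74 in limma). Fosb, with 1.01 and 0.833 FPKM, lay below the level filter, as did Atf3 (0.330 and 0.195 FPKM), Batf and Batf2. Of the 8 AP-1 genes tested 1 was higher, 1 was lower and 6 did not pass, against shares of 4.04% and 2.49% over all genes tested. Their median was 0.04. These are RNA levels and say nothing of the phosphorylation by which AP-1 is largely controlled.

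The glucocorticoid receptor Nr3c1 stood at 13.6 ± 0.484 FPKM in control libraries and 14.4 ± 0.897 FPKM in conditioned ones and did not pass (log2 fold change 0.08, limma adjusted p = 0.45). Of 11 tested genes of the list with its targets, 3 were higher, 2 were lower and 6 did not pass, with a median of -0.02. Over all genes tested, 4.04% were higher and 2.49% lower. Angptl4, a lipoprotein lipase inhibitor, was at 3.32, 3.99 and 4.44 FPKM in control and 9.79, 9.33 and 9.77 FPKM in conditioned libraries. It rose by 1.12 ± 0.08 (SE), the largest log2 fold change of the list (limma adjusted p = 1.5e-04).

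Mt1, a metal-binding metallothionein, rose from 7.31 ± 0.368 to 10.5 ± 1.00 FPKM, and Sgk1, a serum- and glucocorticoid-induced kinase, from 56.0 ± 0.779 to 68.5 ± 0.563 FPKM. Their log2 fold changes were 0.46 ± 0.07 and 0.29 ± 0.03 (SE, limma adjusted p = 0.0073 and 0.0012). Cdkn1c, an inhibitor of the cell cycle, fell from 10.1 ± 0.698 to 6.83 ± 0.109 FPKM (-0.50 ± 0.06, adjusted p = 0.0014 in limma). Genes of this list thus stood on both sides of 0.

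Proliferins belong to a set of secreted proteins that fibroblasts are known to make after growth factors or phorbol ester. Of 15 tested genes of such a list, 4 were higher, 1 was lower and 10 did not pass (beside 4.04% higher and 2.49% lower among all genes tested). The median log2 fold change was -0.01. Spp1, the matrix phosphoprotein osteopontin, was at 67.7, 65.0 and 72.3 FPKM in control and 117, 116 and 120.4 FPKM in conditioned libraries. It rose by 0.78 ± 0.04 (SE, limma adjusted p = 3.6e-05), the largest value of the list.

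The monocyte chemokines Ccl2 and Ccl7 rose by 0.51 ± 0.05 and 0.40 ± 0.05 (SE, limma adjusted p = 4.6e-04 and 0.0030), from 46.5 to 66.7 FPKM and from 274 to 362 FPKM. Lif, a cytokine of the interleukin 6 family, fell from 5.55 to 4.10 FPKM (-0.36 ± 0.07, adjusted p = 0.015 in limma), with adjusted p from 0.053 to 0.066 without control library 2 or 3 or conditioned library 1 or 2.

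Since proliferins act on vessels, other angiogenic and antiangiogenic factors were set beside them. Of 18 tested, 3 were higher, 2 were lower and 13 did not pass, where the shares over all genes tested were 4.04% and 2.49%. The median was 0.04. Vegfd, a secreted factor of the Vegf family, rose from 47.7 ± 1.55 to 58.5 ± 1.70 FPKM (0.29 ± 0.04, limma adjusted p = 0.0038). Angptl4, described above, is the second of the 3. Vegfa, the main endothelial growth factor, rose from 15.9 to 19.2 FPKM (0.26 ± 0.05, adjusted p = 0.019 in limma), but its call was lost without control library 2 or any one conditioned library (adjusted p 0.058 to 0.079).

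Nov, a matricellular protein of the CCN family, was at 42.2, 43.9 and 45.2 FPKM in control and 19.8, 19.7 and 18.6 FPKM in conditioned libraries. It fell by 1.14 ± 0.04 on the log2 scale (limma adjusted p = 3.7e-06), the largest fall of any list here. In none of these lists did a gene reach the log2 differences of Prl2c3 or Prl2c2. The proliferins were chosen for the size of those differences, so nothing is read from this.

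**Figure D3:**
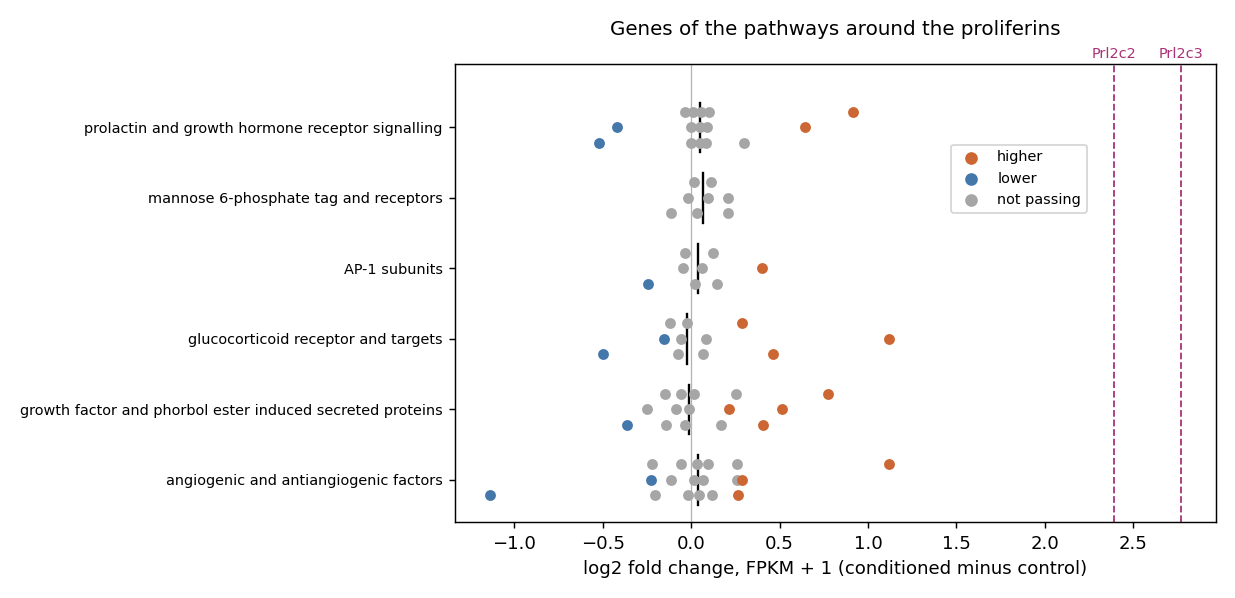
Log2 fold change, conditioned minus control on the log2(FPKM + 1) scale (horizontal axis), of each tested gene of 6 lists; points are genes, coloured by limma call at an adjusted p below 0.05, black ticks are list medians and dashed lines mark Prl2c2 (2.39) and Prl2c3 (2.77). List medians lie between -0.02 and 0.07, and the gene nearest to the proliferins is Angptl4 at 1.12. Prl2c2 and Prl2c3 were chosen for their size in this contrast.

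Genes beside the proliferins on chromosome 13 were examined for values of similar size. Within 500 kb of a Prl2c start there were 21 other genes in the deposited values, of which 8 were tested. Of these 1 was higher, 0 were lower and 7 did not pass in limma, and over all genes tested 4.04% were higher and 2.49% lower. The neighbours had a median log2 fold change of 0.12 and a range of -0.05 to 0.40. Nid1, which encodes the basement membrane protein nidogen, rose from 233 ± 9.87 to 266 ± 2.61 FPKM (0.19 ± 0.04, limma adjusted p = 0.025). Its call was lost without control library 2 or any one conditioned library (adjusted p 0.080 to 0.11) and with quantile normalization (0.12).

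The widest neighbour, the pseudogene Gm2399, had a log2 fold change of 0.40 ± 0.32 (SE, limma adjusted p = 0.57) from 28 fragments in control and 38 in conditioned libraries. Gm2423, another pseudogene, had 0.25 (adjusted p = 0.56), and passed without control library 1 (0.49, adjusted p = 0.0063 in limma). Lyst, Lgals8, Heatr1, Gpr137b and Gpr137b-ps had 0.13, 0.10, 0.03, 0.02 and -0.05. Gm7040, a pseudogene that shares sequence windows with the proliferins, was listed at 0 in all 3 controls and had 4 fragments in the conditioned libraries.

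**Figure D4:**
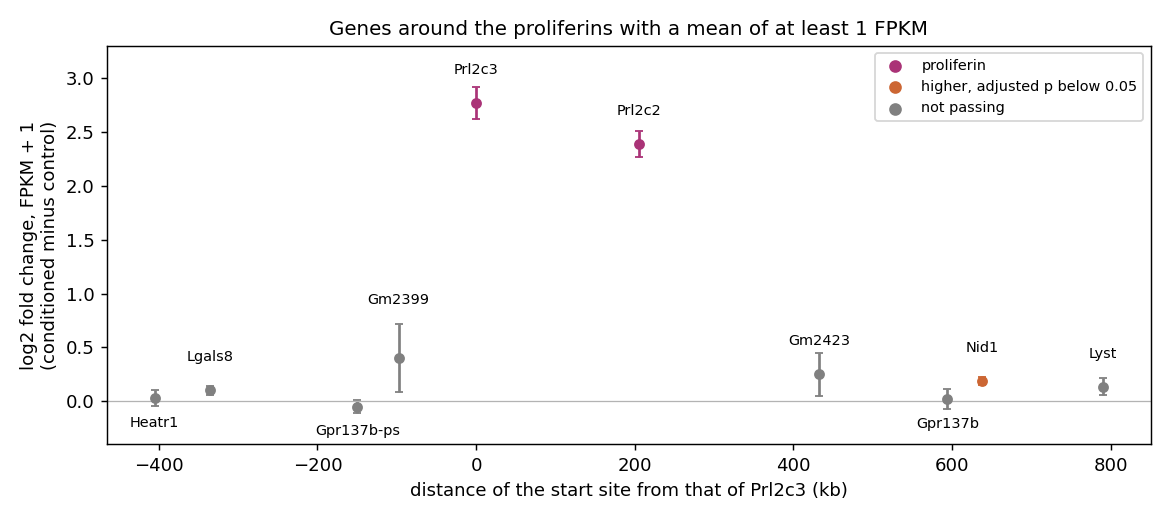
Log2 fold change (conditioned minus control, log2(FPKM + 1) scale, bars 1 SE) of the tested genes around the proliferins on chromosome 13, plotted against the distance of their start from that of Prl2c3 in kb. Prl2c3 and Prl2c2, chosen for their size in this contrast, stand at 2.77 and 2.39, while the 8 neighbours lie between -0.05 and 0.40.

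The genes whose profiles over the 6 libraries were nearest to the proliferin sum were found among 7086 genes averaging 5 FPKM or more outside the Prl2c group. Likeness was the root mean square distance between log2(FPKM + 1) values, each centred on its own mean, and is a description over libraries that all these genes share. Ifit3, an antiviral protein induced by interferon, was nearest, at a distance of 0.170 (Pearson r 0.995). It was at 15.8, 14.2 and 15.2 FPKM in control and 90.9, 94.1 and 87.9 FPKM in conditioned libraries. The next were Isg15 (distance 0.277), a ubiquitin-like modifier, Ifit3b (0.306), Ifit1 (0.318) and the GTPase Iigp1 (0.329).

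Bst2 (0.382), which tethers budding virus, Ifi44 (0.400), Zbp1 (0.420), a sensor of nucleic acids, Usp18 (0.460), which removes Isg15 from proteins, and Oasl2 (0.477) completed the 10. Their Pearson r over the 6 libraries ran from 0.989 to 0.997. With 2 groups set far apart such values are near 1 for any gene with a large difference. The order by distance, too, nearly follows the log2 fold change, from 2.52 for Ifit3 to 1.84 for Oasl2. The proliferins were chosen on that same difference, so no likeness beyond it is read from these distances. For scale, Prl2c3 lay at 0.0424 from the sum of which it is a part, and Prl2c2 at 0.179. Apart from the proliferins, the genes with the largest log2 fold changes were Ifit3 (2.52, place 2), Isg15 (2.27, place 4) and Ifit3b (2.21, place 5).

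The profiles were not identical within the groups. Among the controls the proliferin sum was lowest in library 2 and highest in library 3, and Ifit3 was likewise lowest in control library 2 but highest in control library 1. Isg15 was at 24.9, 29.6 and 34.2 FPKM in control libraries 1, 2 and 3 and at 158, 147 and 131 FPKM in conditioned libraries 1, 2 and 3, a wider spread in the conditioned group than that of the sum.

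**Figure D5:**
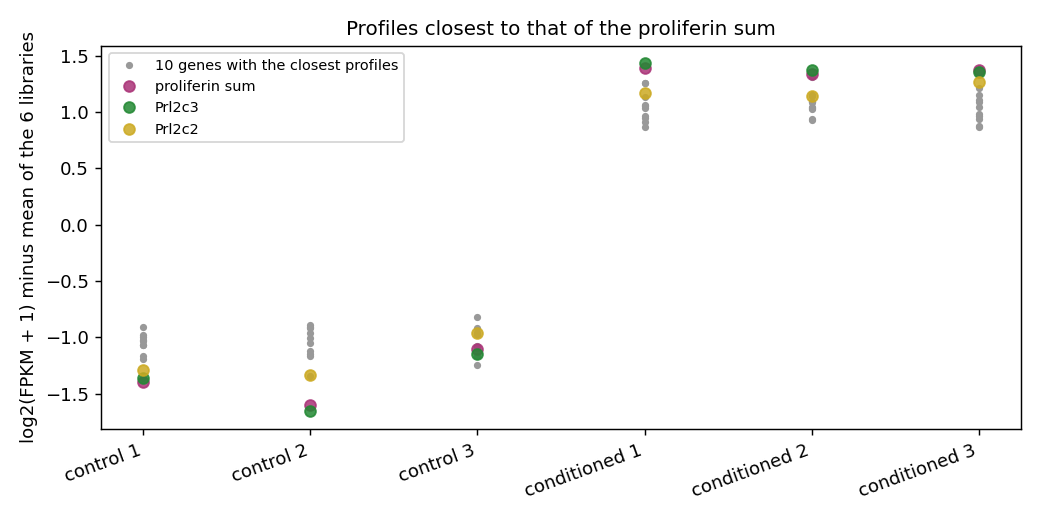
Log2(FPKM + 1) minus the mean of the 6 libraries (vertical axis) in each library for the proliferin sum, Prl2c3, Prl2c2 and the 10 genes with the closest profiles (small points). The proliferin sum is below the mean in all 3 controls and above it in all 3 conditioned libraries, with control library 3 nearest to the mean among the controls.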

How the data were processed

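The authors deposited FPKM values per gene for 6 libraries (3 in each of 2 groups). HISAT2 2.0.5, CASAVA and the build mm10 appear in the submitters' processing notes, with no role stated. For the counting program, annotation, strand setting and read length, nothing was given in the sources used here. The deposited FPKM of each of the 24413 genes were whole multiples of 1 fragment within 0.01 fragment. With GENCODE M21 exon lengths this held for 23574 genes, the proliferins among them; for 839 the length was searched. Recovered fragments gave counts, shares and an alternative fit.

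Genes averaging 1 FPKM or more were tested on log2(FPKM + 1), which understates changes of low genes, with limma 3.58.1 in R 4.3.3 (trend, robust prior, two-sided, all 6 libraries). P-values were Benjamini-Hochberg adjusted over all genes tested, with a threshold of 0.05. The fit was also run on simulated data with the same dispersion for every gene, which real genes do not share, and no result here rests on it. SE values of the proliferins come from their own libraries, and those of other genes from limma. The proliferins and all gene lists were chosen with earlier results of these data known. Named genes were every Prl2c gene, detected relatives, the receptors, tagging enzymes and AP-1 subunits that act with proliferins, up to 4 passing genes a list with the largest log2 fold change, tested neighbours within 500 kb, the 10 closest profiles and the 3 next largest fold changes; Tek, Tubb3 and other marker genes were added after values were seen. Sequences were read with Biopython 1.88 from GENCODE M21 transcripts and RefSeq promoters. Alternatives changed the pseudocount, level filter, scaling, replicate block, model and libraries. Wilson intervals have 95% confidence. Some genes of these lists are counted but not reported by name here.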

Additional observations from a re-analysis of the deposited data

How the results depend on the processing

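The summed proliferin difference stayed between 2.61 and 2.89 on the log2 scale in every setting tried. A pseudocount of 0.1 FPKM gave 3.01 for Prl2c3 and 2.64 for Prl2c2, and voom on recovered fragments gave 3.03 and 2.66. Leaving out 1 library at a time gave 2.63 to 2.89 for Prl2c3, 2.32 to 2.50 for Prl2c2 and 55.2% to 57.1% for the Prl2c3 share over the 6 libraries. That share was 56.0%, and 60.9% with the main transcript length, chosen after seeing the data. Beside 763 genes called, 492 were called with no low filter (165 lower), and 1148 by voom (713 higher, 435 lower). Without 1 library, 394 (without conditioned library 2) to 676 genes were called, 265 to 426 higher and 129 to 250 lower, where fewer libraries enter. The cause of the other shifts was not tested. Quantile normalization gave 52.2% of calls higher against 61.9%.

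Same-numbered libraries did not deviate together (r = -0.0948, -0.00803 and -0.0476), so these values gave no sign of pairing by number. With 3 libraries a group they cannot show whether libraries shared an animal or a preparation. A replicate block called 390 genes (259 higher, 131 lower). Of the named genes outside the proliferins, Irs1, Fos, Vegfa and Nid1 were not called with it (limma adjusted p = 0.058, 0.052, 0.064 and 0.10). Of 13 alternative settings, the calls of Fos and Nid1 were lost in 7 and those of Tek and Vegfa in 6. Igf1 and Lif lost theirs in 4 of 12.

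Genes that did not pass changed sign in places, and the cause was not tested. Quantile normalization gave -0.0081 for Ghr and -0.0061 for Stat5a. Stat5a was -0.0052 with median centring and -0.0023 by voom. Without 1 library the ranges were -0.049 to 0.043 for Stat5a, -0.062 to 0.15 for Junb, -0.048 to 0.27 for Jund, -0.042 to 0.096 for Gpr137b and -0.015 to 0.096 for Heatr1. Depth limits Prl2c5 and the prolactin relatives, with 10 fragments or fewer a gene over the 6 libraries.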
